A study of Solanum lycopersicum with 18 samples.

Results

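The oldest fruit of the tomato mutant rin, sampled at 45 DAP, was compared with green wild-type fruit sampled at 35 DAP. The ages are written DAP in the labels, which spell it out as days after planting. Both groups hold 3 arrays, so the comparison uses 6 of the 18 arrays of the series, chosen by genotype and age as labelled. The rin fruit at 45 DAP carries the stage name red-ripe, the name the labels also give wild-type fruit of that age, and the wild-type fruit at 35 DAP is labelled immature green. All arrays were of pericarp, the fleshy wall of the fruit, of the variety Pusa Ruby, hybridised to the Affymetrix tomato array. The comparison asks how far old rin fruit had moved away from the green state of wild type. Genotype and age differ together between these groups and cannot be told apart in it, so values of rin fruit at 35 DAP and of wild-type fruit at 40 and 45 DAP, 3 arrays each, are set beside some of the results. Those side-by-side comparisons share arrays with the main one.

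Tomato fruit ripens through a burst of ethylene, the gaseous hormone of climacteric fruit, which is made from S-adenosylmethionine by ACC synthases and ACC oxidases and is sensed by a family of membrane receptors. RIN is a MADS-box transcription factor that binds many ripening genes, and NOR, a NAC transcription factor, acts beside it. Ripening wild-type fruit breaks down chlorophyll, makes the red carotenoid lycopene, softens as enzymes cut the pectin and hemicellulose of its cell walls, and gains aroma volatiles. Fruit of the rin mutant stays firm, pale and low in ethylene. Green fruit still photosynthesises, stores starch and expands, processes in which chlorophyll-binding proteins, starch enzymes, auxin response factors and wall-loosening enzymes take part.

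Signals are on the linear scale of the deposited table, and differences are log2 of the signal, rin 45 DAP minus WT 35 DAP unless another pair is named. A probe set is the unit of the array, most genes having 1, and it was called changed at an adjusted p under 0.05 in limma over the 7717 probe sets tested. An array is called dim for a probe set where the signal lay at or below that array's own 30th percentile. Where any array of the lower group was dim, a called change is also given as at least a fold, with dim signals of that group raised to that percentile. The log2 difference beside such a bound is the fitted value, which takes dim signals as they stand, so the bound and not the log2 difference gives the size.

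The arrays of the rin group were uneven. Replicate 1 of rin 45 DAP correlated with replicates 2 and 3 at 0.915 to 0.924 across probe sets, while replicates 2 and 3 correlated with each other at 0.991. Its code in the sample title also differs from that of rin replicate 1 at the younger ages. Replicate 2 of WT 35 DAP correlated with the other two arrays of its group at 0.922 to 0.941. The log2 ratio of the 3' to the 5' actin control, which grows as RNA degrades, was 0.90, 0.20 and 0.22 in rin 45 DAP and 0.98, 0.91 and 0.55 in WT 35 DAP, so it was lower in replicates 2 and 3 of the mutant. In rin 35 DAP, whose values are set beside some results, the ratio was 0.61, 2.56 and 1.33, the last 2 being the highest of the 18 arrays. The part of RNA quality in the results was not tested. In pericarp RNA, fewer cells of a type and less RNA per cell cannot be told apart.

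RIN, the mutated gene, was examined first. Its signal was 5.61, 5.11 and 5.11 in rin 45 DAP, dim on all 3 arrays, against 158, 62.5 and 236 in WT 35 DAP. Green wild-type fruit therefore already showed the transcript above background, and the old mutant fruit did not. The log2 difference was -4.66 ± 0.37 (SE, limma adjusted p = 9.70e-06), at least 9.298-fold lower in rin 45 DAP, and it was called in every fit that left out 1 array. In WT 45 DAP the signal averaged 5964 ± 838 (SD, n = 3), and in rin 35 DAP it was as dim as at 45 DAP, at 5.92 ± 0.464. The position of the probes within RIN is not given, so whether the lesion removes their target was not tested.

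Over the whole array, old rin fruit lay closer to green wild-type fruit than to wild-type fruit of its own age. The median absolute log2 difference over probe sets, taken for each pair of arrays, lay between 0.414 and 0.511 for rin 45 DAP with WT 35 DAP (median 0.460 over 9 pairs). It lay between 0.42 and 0.671 with WT 40 DAP (median 0.481), so wild-type fruit of that age lay about as near as green fruit. With WT 45 DAP it lay between 0.521 and 0.703 (median 0.624). Measured to the group means, rin 45 DAP replicate 1 lay nearer to WT 40 DAP (0.4405) than to WT 35 DAP (0.461). Replicates 2 and 3 lay nearer to WT 35 DAP (0.425 and 0.4071) than to WT 40 DAP (0.4849 and 0.4689). Wild-type fruit at 45 DAP lay 0.691 to 0.825 from wild-type fruit at 35 DAP, farther than any pair of rin 45 DAP with WT 35 DAP. Pairs within rin 45 DAP lay 0.193 to 0.422 apart and pairs within WT 35 DAP 0.235 to 0.334 apart, so the closest pair between the groups lay only just inside the largest spread within the mutant. The distances are descriptions of these arrays, and no test was made of them.

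The replicates of rin 45 DAP differed in how near they lay to red wild-type fruit. Replicate 1 lay 0.521 to 0.569 from WT 45 DAP, while replicate 2 lay 0.624 to 0.703 and replicate 3 lay 0.591 to 0.683 from it. From WT 35 DAP the 3 mutant arrays lay at nearly the same distance, with 0.456 to 0.511 for replicate 1, 0.432 to 0.478 for replicate 2 and 0.414 to 0.462 for replicate 3.

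**Figure D1:**
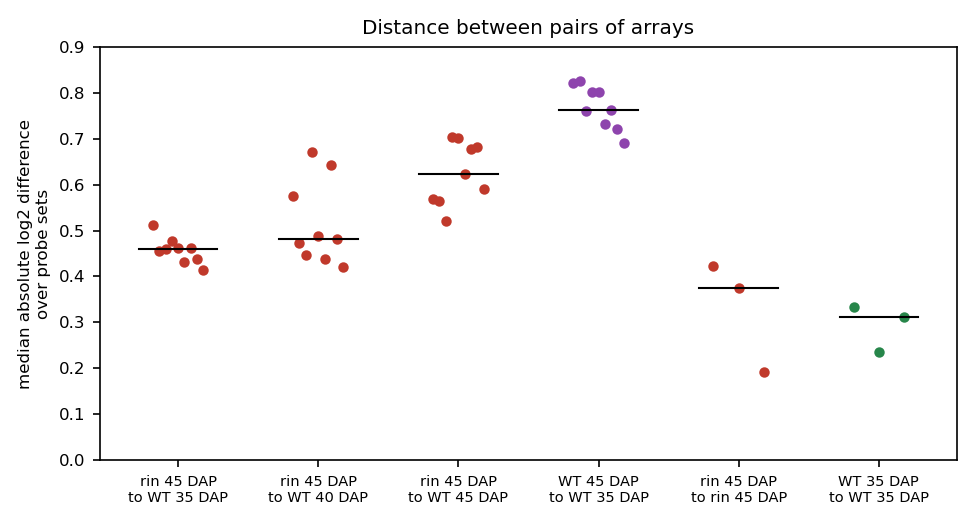
Median absolute log2 difference over the 7717 probe sets tested, on the vertical axis, for each pair of arrays from the groups named on the horizontal axis; each point is 1 pair, coloured by the group named first, and the line is the median. Pairs of rin 45 DAP with WT 35 DAP lie between 0.414 and 0.511, below every pair of WT 45 DAP with WT 35 DAP, which lie between 0.691 and 0.825.

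Of the 7717 probe sets, 506 (6.56%) were called between rin 45 DAP and WT 35 DAP, 244 higher (3.16%) and 262 lower (3.4%) in the mutant. In wild type, the same step of age gave 3286 calls between 45 and 35 DAP (42.6%), 1825 higher (23.6%) and 1461 lower (18.9%), and rin 45 DAP differed from WT 45 DAP at 2179 (28.2%). At the same age of 35 DAP, rin and wild type differed at 26 (0.337%), and within rin, 872 (11.3%) were called between 45 and 35 DAP. That change with age differed between rin and wild type at 1018 (13.2%). The fits take all arrays as independent, although codes in the sample titles recur across ages, 2 of the rin codes at all 3 ages, and whether arrays of one code share a plant is not stated. Without adjustment, 22.9% of the probe sets had a p under 0.05 for rin 45 DAP against WT 35 DAP, the share against which such counts of list members below are read. The median absolute log2 difference of group means was 0.377 for rin 45 DAP against WT 35 DAP, 0.555 for rin 45 DAP against WT 45 DAP and 0.729 for WT 45 DAP against WT 35 DAP. A log2 difference of at least 1 in either direction was seen at 1289 probe sets for rin 45 DAP against WT 35 DAP and at 2937 for WT 45 DAP against WT 35 DAP.

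The number called depended on single arrays. Without rin 45 DAP replicate 1, 378 were called, 148 higher and 230 lower. Over the 6 fits that each left out 1 array the total lay between 190 and 378, and 143 of the 506 were called in all 6. The 3 arrays of each group did not overlap at any of the 506, which is how 36.4% of all tested probe sets also stood.

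**Figure D2:**
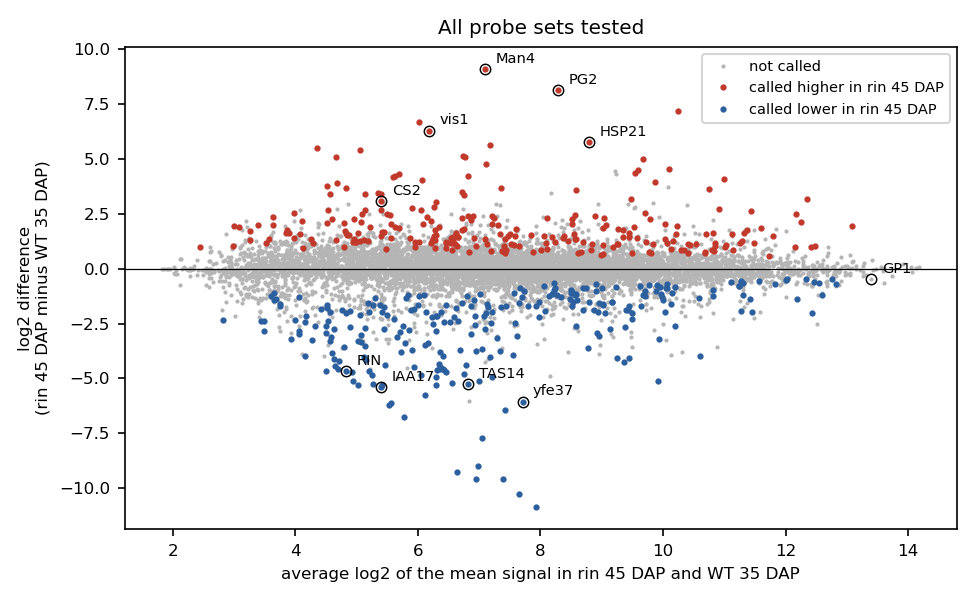
Log2 difference, rin 45 DAP minus WT 35 DAP, against the average log2 signal of both groups for each of the 7717 probe sets tested. Red points are the 244 called higher and blue points the 262 called lower in rin 45 DAP; the circled genes include PG2 and Man4 at the top, and GP1, a cell wall gene of green fruit at -0.49, which was not called.

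Gene names could be given to 635 of the genes tested, and 58 of them were called, where 6.56% of all tested probe sets were. Of the 58, 28 were higher and 30 lower. The largest increases were in enzymes of wall breakdown, small heat shock proteins and a ripening ACC synthase. By fitted log2 difference the largest decrease was in yfe37, a glutamate decarboxylase, and the 11 next held auxin response repressors, wall enzymes, a starch enzyme, stress and defence proteins, and RIN itself.

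**Figure D3:**
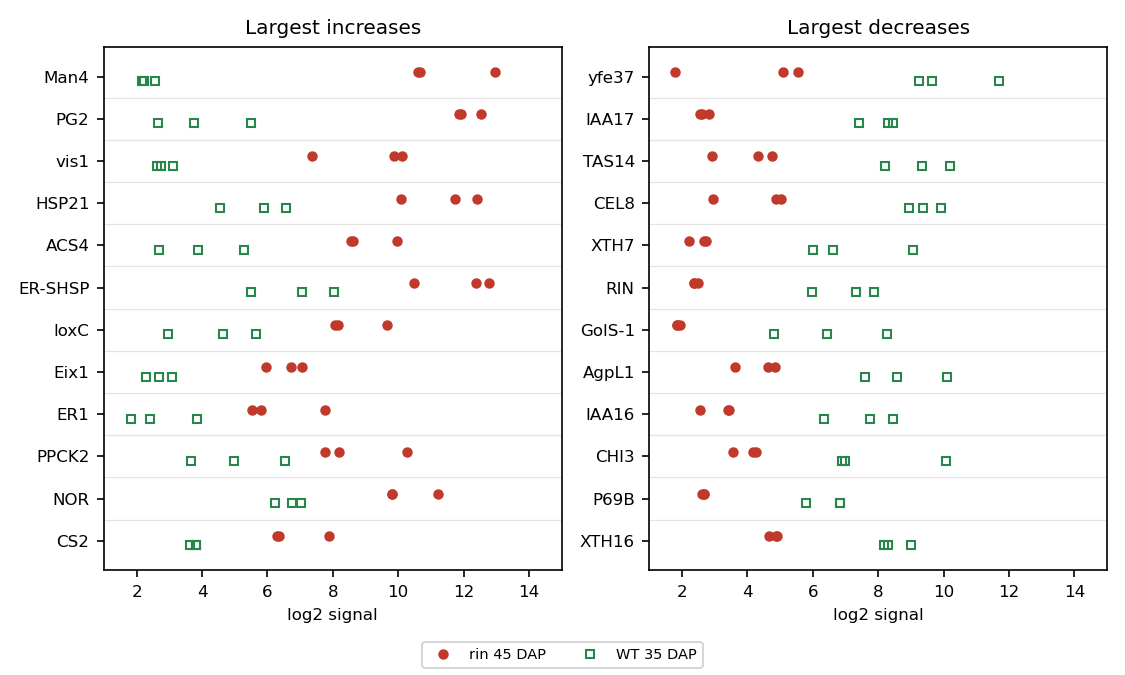
Log2 signal of each array for the 12 genes with the largest called increase (left) and the 12 with the largest called decrease (right), with filled circles for rin 45 DAP above open squares for WT 35 DAP in each row. In every row the 3 arrays of the groups stand apart, because only genes with non-overlapping arrays were chosen. On the left the spread within rin 45 DAP is wide for genes such as Man4, ACS4 and vis1.

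Among the ripening regulators, NOR rose and RIN fell (3.16% and 3.4% of all tested), and the other 3 of the 5 tested were not called. An unadjusted p under 0.05 was seen for 2 of the 5 (22.9% of all tested). NOR gave 2362, 895 and 903 in rin 45 DAP, against 75.8, 108 and 129 in WT 35 DAP. All mutant arrays lay above all green arrays, with replicate 1 the highest. The log2 difference was 3.60 ± 0.98 (limma adjusted p = 0.0397), but no fit with 1 array left out called it, the highest adjusted p being 0.135. In WT 45 DAP, NOR averaged 1793 ± 379.8, and the log2 difference of rin 45 DAP from it was -0.51 ± 0.98 (limma adjusted p = 0.736). TDR4, the tomato FRUITFULL homologue, gave 994, 541 and 583 in rin 45 DAP, against 434, 1048 and 1362 in WT 35 DAP. Its groups overlapped (log2 difference -0.33 ± 0.68, limma adjusted p = 0.828), while WT 45 DAP averaged 8924 ± 2141, a log2 difference of 3.36 from green fruit (limma adjusted p = 0.00111). TAGL1, a MADS-box factor of fruit expansion and ripening, also overlapped, at 1146, 560.2 and 748 in rin 45 DAP and 909.7, 865 and 1081 in WT 35 DAP.

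Of 10 tested genes of ethylene synthesis, each by its brightest probe set, ACS4 rose and SAM1 fell (3.16% and 3.4% of all tested). An unadjusted p under 0.05 was seen for 5 of the 10 (22.9% of all tested). The median log2 difference was 0.30, against 0.02 over all tested probe sets. ACO6 was not called by its brightest probe set but was called higher by its other two. ACS4, an ACC synthase of ripening fruit, gave 1008, 379.8 and 394 in rin 45 DAP, against 14.7, 6.398 and 39.3 in WT 35 DAP, where 2 arrays were dim. Every mutant array stood far above every green one, at least 25.4-fold higher in all, with a log2 difference of 5.11 ± 1.03 (limma adjusted p = 0.01), which was 4.47 without WT 35 DAP replicate 2 and 5.78 without replicate 3. It remained below WT 45 DAP, which averaged 4421 ± 668 (log2 difference of rin 45 DAP from it -3.04, limma adjusted p = 0.0389). ACS2, the partner ACC synthase of ripening, gave 110.4, 7.82 and 7.48 in rin 45 DAP, against 4.55, 5.32 and 4.55 in WT 35 DAP, all 3 dim. Only replicate 1 of the mutant was above background, and the gene was not called (limma adjusted p = 0.201). WT 45 DAP averaged 4324 ± 1414 for ACS2, far above all 3 mutant arrays.

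SAM1 makes S-adenosylmethionine, the precursor of ethylene and of methylation reactions. Its signal was 4532, 3322 and 4576 in rin 45 DAP, against 9285, 8838 and 9724 in WT 35 DAP, a called log2 difference of -1.18 ± 0.21 (limma adjusted p = 0.00585). SAM3, of the same family, gave 1434, 3283 and 3411 in rin 45 DAP, against 6869, 5469 and 6343 in WT 35 DAP, which did not overlap but was not called (limma adjusted p = 0.0762). ACS6, an ACC synthase of green fruit, gave 113, 309.9 and 283 in rin 45 DAP and 296, 64.7 and 240.3 in WT 35 DAP, overlapping, whereas WT 45 DAP averaged 12.4 ± 8.01. The log2 difference of rin 45 DAP from WT 45 DAP was 4.31 (limma adjusted p = 2.71e-04). ACS1A overlapped between the groups as well, at 9.77, 196 and 205 in rin 45 DAP and 197, 8.32 and 79.3 in WT 35 DAP.

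Of 25 tested genes of ethylene perception and response, ER1, ETR3 and EIL2 rose (3.16% of all tested) and none was called lower (3.4%). Their median log2 difference was 0.28, and 5 of the 25 had an unadjusted p under 0.05, a share near the 22.9% of all tested probe sets. ETR3, the Never-ripe receptor, listed as LOC544279, gave 2115, 820.4 and 675 in rin 45 DAP, against 350.1, 217 and 372 in WT 35 DAP. The mutant arrays lay above the green ones, with a log2 difference of 1.79 ± 0.46 (limma adjusted p = 0.0317). WT 45 DAP averaged 4228 ± 689, above the mutant (log2 difference of rin 45 DAP from it -1.99, limma adjusted p = 0.00495). ETR4, another receptor, gave 5058, 1383 and 1237 in rin 45 DAP, against 1043, 874 and 1530.4 in WT 35 DAP, so that replicate 1 alone stood out and the gene was not called. EIL2, an EIN3-like transcription factor that carries the ethylene signal into the nucleus, gave 2726, 1760.3 and 2123 in rin 45 DAP, against 1103, 1143 and 787 in WT 35 DAP (log2 difference 1.12 ± 0.21, limma adjusted p = 0.0064). It was called in every fit with 1 array left out. ER1, on the ethylene response list by its name, gave 216, 55.5 and 45.96 in rin 45 DAP, against 3.52, 14.4 and 5.25 in WT 35 DAP, all 3 dim, at least 5.42-fold higher (log2 difference 3.67 ± 1.02, limma adjusted p = 0.044). No fit with 1 array left out called ER1, and its log2 difference was 2.97 without rin 45 DAP replicate 1. ETR3 lost its call without rin 45 DAP replicate 1 or 2 or without any 1 of the green arrays, with adjusted p up to 0.113.

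Wall-breaking enzymes held the largest increases of all named genes. Of the 26 tested wall genes 2 were called higher, where 3.16% of all tested probe sets were. An unadjusted p under 0.05 was seen for 9 of the 26 (22.9% of all tested). Man4, an endo-mannanase of ripening fruit that cuts mannan chains, gave 7957, 1642 and 1562 in rin 45 DAP, against 4.46, 5.85 and 4.69 in WT 35 DAP, all 3 dim. The mutant level was at least 181-fold higher (log2 difference 9.10 ± 1.53, limma adjusted p = 0.00422), or 8.33 in log2 without rin 45 DAP replicate 1. WT 45 DAP averaged 2719.6 ± 3590.1, with an SD above the mean, so that only this mean, and not each array, lay within the range of the mutant arrays. The log2 difference of rin 45 DAP from WT 45 DAP was 1.01 ± 1.53 (limma adjusted p = 0.667). PG2, the polygalacturonase that cuts pectin in ripe fruit, gave 5949, 3906 and 3695 in rin 45 DAP, against 6.33, 13.6 and 45.02 in WT 35 DAP, where 2 arrays were dim. Here too no array of one group came near the other, at least 201-fold higher in the mutant (log2 difference 8.14 ± 1.20, limma adjusted p = 0.00208), with log2 differences from 7.48 without WT 35 DAP replicate 1 to 8.90 without replicate 3. WT 45 DAP averaged 22818 ± 2086, and the log2 difference of rin 45 DAP from it, -2.37 ± 1.20, was not called (limma adjusted p = 0.157). Both were at background in rin 35 DAP, where Man4 averaged 4.91 ± 0.393 and PG2 7.07 ± 1.89.

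Other wall genes that are high in red wild-type fruit were not called between old rin and green wild-type fruit. TBG4, a beta-galactosidase of ripening, gave 125, 37.8 and 39.4 in rin 45 DAP, against 18.3, 24.00 and 15.2 in WT 35 DAP. The groups did not overlap, but the difference missed the threshold (log2 1.60 ± 0.49, limma adjusted p = 0.0686), and WT 45 DAP averaged 478 ± 117. EXP1, the ripening expansin, a protein that loosens walls, gave 1178, 45.2 and 47.2 in rin 45 DAP, against 339.6, 313 and 1563 in WT 35 DAP. Replicates 2 and 3 of the mutant lay below every green array and replicate 1 did not, while WT 45 DAP averaged 8026 ± 2038. Cel2, an endo-glucanase of ripe fruit, and XYL1, a xylosidase, were not well above background in either rin 45 DAP or WT 35 DAP, whereas WT 45 DAP averaged 4466 ± 1228 for Cel2 and 154 ± 87.9 for XYL1.

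Over the 26 wall genes the median log2 difference was -0.58, with CEL8 and XTH16 lower in rin 45 DAP. CEL8, an endo-glucanase of growing tissue, gave 7.72, 29.6 and 32.3 in rin 45 DAP, against 657, 489 and 973 in WT 35 DAP. The mutant arrays were at least 29.2-fold lower, 1 of them dim (log2 difference -5.12 ± 1.07, limma adjusted p = 0.0116), or -4.45 in log2 without rin 45 DAP replicate 1. XTH16, of the family that cuts and rejoins xyloglucan, gave 29.2, 25.1 and 29.95 in rin 45 DAP, against 291, 516 and 317 in WT 35 DAP. All 3 mutant arrays were about alike and far below the green ones (log2 difference -3.69 ± 0.98, limma adjusted p = 0.0361), yet no fit with 1 array left out called it, the highest adjusted p being 0.105. XTH7, of the same family, gave 4.65, 6.71 and 6.35 in rin 45 DAP, all dim, against 532, 63.9 and 97.2 in WT 35 DAP, at least 10.4-fold lower in the mutant (log2 difference -4.68 ± 0.75, limma adjusted p = 0.00355). Its log2 difference was -3.76 without WT 35 DAP replicate 1 and -5.29 without replicate 2. These 3 genes were also lower in WT 45 DAP than in WT 35 DAP, with log2 differences of -4.39 for CEL8, -5.65 for XTH16 and -4.98 for XTH7.

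No carotenoid or isoprenoid gene of the 18 tested was called higher in rin 45 DAP (3.16% of all tested), and HMGR and CrtR-b1 fell (3.4%). The median log2 difference was 0.10, and 9 of the 18 had an unadjusted p under 0.05, where 22.9% of all tested probe sets did. In WT 45 DAP against WT 35 DAP the same list had 8 higher and 3 lower. Psy1, phytoene synthase, which commits precursors to carotenoids in fruit, gave 5816, 2651 and 3302 in rin 45 DAP, against 1527, 969.6 and 2351 in WT 35 DAP. Its arrays did not overlap, but it missed the threshold (log2 difference 1.29 ± 0.38, limma adjusted p = 0.059) and was called only without WT 35 DAP replicate 3, at an adjusted p of 0.044. WT 45 DAP averaged 19298 ± 1168, and rin 45 DAP lay below it by a called log2 difference of -2.38 (limma adjusted p = 3.41e-04). DXS, the entry enzyme of the plastid isoprenoid pathway, overlapped, at 403, 339.7 and 272 in rin 45 DAP and 391, 289 and 378 in WT 35 DAP, with 2026 ± 263 in WT 45 DAP. ZDS, a desaturase on the way to lycopene, overlapped too, at 549.9, 437 and 464 in rin 45 DAP and 351, 256 and 462 in WT 35 DAP, with 1732 ± 134 in WT 45 DAP.

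CrtR-b1 is a beta-carotene hydroxylase, which turns beta-carotene towards xanthophylls. It gave 209.9, 168 and 174 in rin 45 DAP, against 446, 502 and 361 in WT 35 DAP (log2 difference -1.24 ± 0.28, limma adjusted p = 0.0172), and the call was lost without rin 45 DAP replicate 2 or 3 or without WT 35 DAP replicate 1 or 2, with adjusted p up to 0.0698. In WT 45 DAP it was higher than in green fruit, at 791 ± 192. HMGR, of the mevalonate pathway in the cytosol, gave 21.7, 12.6 and 13.7 in rin 45 DAP, 2 of them dim, against 99.1, 201 and 57.7 in WT 35 DAP. The arrays stood apart, at least 6.21-fold lower in the mutant (log2 difference -2.75 ± 0.46, limma adjusted p = 0.00411), and rin 35 DAP already averaged 24.01 ± 10.04, a log2 difference from WT 35 DAP of -2.20 that was not called (limma adjusted p = 0.061).

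Among 9 tested genes of aroma volatile synthesis, loxC alone was called, and it was higher (3.16% of all tested). An unadjusted p under 0.05 was seen for 3 of the 9 (22.9% of all tested), and the median log2 difference was 0.03. The lipoxygenase loxC makes precursors of the fresh fatty-acid volatiles of ripe tomato. It gave 811, 271 and 284 in rin 45 DAP, against 24.99, 7.78 and 50.4 in WT 35 DAP, where 1 array was dim. The mutant arrays lay well above the green ones, at least 14.8-fold higher (log2 difference 4.21 ± 0.94, limma adjusted p = 0.0163), although the call was lost without rin 45 DAP replicate 1 (adjusted p = 0.0592) or WT 35 DAP replicate 2 (0.0666, log2 3.48). Without WT 35 DAP replicate 3 the log2 difference was 4.83. AAT, an alcohol acyltransferase that makes esters, gave 3893, 1152 and 1351 in rin 45 DAP, against 94.01, 16.6 and 382 in WT 35 DAP, with no overlap but no call (log2 difference 4.44 ± 1.32, limma adjusted p = 0.0587). ADH2, an alcohol dehydrogenase of ripe fruit, overlapped, at 5412, 2927 and 4055 in rin 45 DAP and 4585, 7860.5 and 7313 in WT 35 DAP, with 14294 ± 472 in WT 45 DAP.

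**Figure D4:**
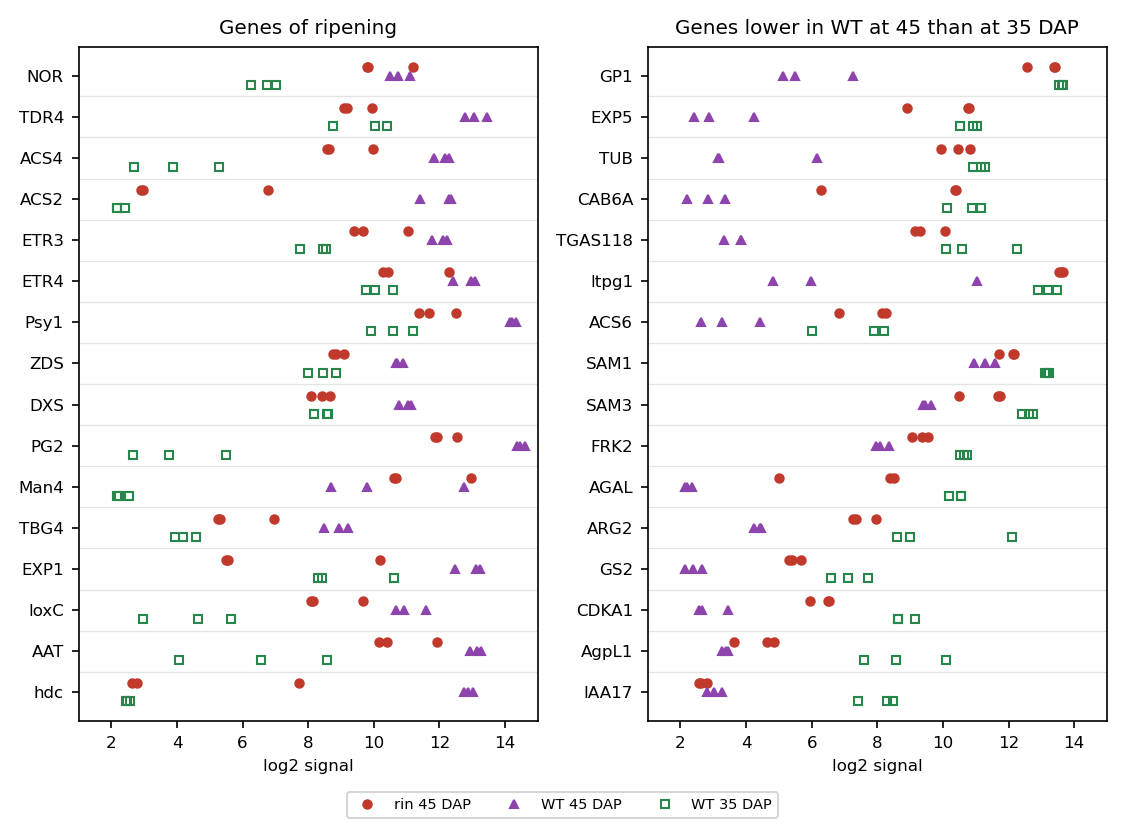
Log2 signal of each array of rin 45 DAP (circles), WT 45 DAP (triangles) and WT 35 DAP (open squares), in that order within each row, for genes of ripening on the left and for genes lower in WT at 45 than at 35 DAP on the right. On the left Man4 lies far above WT 35 DAP in both rin 45 DAP and WT 45 DAP, with a wide spread in WT 45 DAP. PG2 in rin 45 DAP lies below WT 45 DAP but far above WT 35 DAP. DXS and ZDS in rin 45 DAP stand with WT 35 DAP. On the right GP1, TUB and ltpg1 in rin 45 DAP stand with WT 35 DAP while IAA17 and AgpL1 stand with WT 45 DAP.

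Some small heat shock proteins, chaperones that keep unfolding proteins soluble, were among the strongest increases. Of 4 tested on the list of heat shock proteins, which was not limited to small ones, vis1 and HSP21 rose (3.16% of all tested). An unadjusted p under 0.05 was seen for 3 of the 4 (22.9% of all tested), and the median log2 difference was 4.33. HSP17.4 and ER21 were not called. ER21 had a log2 difference of 1.80 (limma adjusted p = 0.0654) on its brightest probe set and -0.17 on its other, also not called. The gene vis1, named for its effect on the viscosity of tomato juice, gave 165, 1103 and 946 in rin 45 DAP, against 6.72, 6.09 and 8.72 in WT 35 DAP, all 3 dim. It was at least 36.8-fold higher (log2 difference 6.29 ± 1.02, limma adjusted p = 0.00355), with replicate 1 of the mutant well below the other 2 arrays, and its log2 difference was 7.17 without that array. HSP21, of the chloroplast, gave 1095, 5457 and 3432 in rin 45 DAP, against 23.5, 58.9 and 94.8 in WT 35 DAP (log2 difference 5.75 ± 1.06, limma adjusted p = 0.00632), or 6.41 in log2 without replicate 1 of the mutant. ER-SHSP, of the endoplasmic reticulum, gave 1427, 5292 and 6999.8 in rin 45 DAP, against 44.96, 263 and 134 in WT 35 DAP, a wide range within both groups (log2 difference 5.01 ± 1.04, limma adjusted p = 0.0116). It was not called without rin 45 DAP replicate 2 or 3 or WT 35 DAP replicate 1, with adjusted p up to 0.0598, and its log2 difference was 5.71 without rin 45 DAP replicate 1, 4.32 without WT 35 DAP replicate 1 and 5.60 without WT 35 DAP replicate 2. In this group replicate 1 of rin 45 DAP was the lowest of the mutant arrays, the reverse of its place for ACS4, ETR3 and Man4. HSP21 averaged 3464 ± 593 and vis1 3139.9 ± 2146 in WT 45 DAP, and neither differed there from rin 45 DAP past the threshold (log2 differences of rin 45 DAP -0.32 and -2.29).

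Outside the lists, Eix1 and PPCK2 were also among the largest increases. Eix1, a receptor-like protein that binds a fungal xylanase, gave 61.7, 132 and 104 in rin 45 DAP, against 8.42, 4.92 and 6.42 in WT 35 DAP, all 3 dim, at least 6.28-fold higher (log2 difference 3.88 ± 0.88, limma adjusted p = 0.0174). The call was lost without rin 45 DAP replicate 2 or 3 or without WT 35 DAP replicate 2 or 3, with adjusted p up to 0.0717. PPCK2, a kinase that activates phosphoenolpyruvate carboxylase, gave 1232, 291 and 217 in rin 45 DAP, against 31.7, 12.8 and 93.8 in WT 35 DAP, 1 of them dim, at least 11.96-fold higher (log2 difference 3.67 ± 0.95, limma adjusted p = 0.0335). Replicate 1 of the mutant was the highest array. PPCK2 was called in no fit with 1 array left out except that without WT 35 DAP replicate 3, where its log2 difference was 4.41, and it was 2.90 without rin 45 DAP replicate 1 and 2.97 without WT 35 DAP replicate 2.

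Several genes that are high in green wild-type fruit and low in red fruit were not called between old rin and green wild-type fruit. GP1, the beta subunit of polygalacturonase found in walls of green fruit, gave 6088, 10796 and 10892 in rin 45 DAP, against 12786, 11920.2 and 12991 in WT 35 DAP. Replicate 1 of the mutant was the lowest, and the difference was not called (log2 -0.49 ± 0.43, limma adjusted p = 0.548). In WT 45 DAP, GP1 averaged only 77.6 ± 65.5, and rin 45 DAP lay above it by a log2 difference of 7.17 ± 0.43 (limma adjusted p = 3.16e-08). EXP5, an expansin of green expanding fruit, gave 475, 1733 and 1786 in rin 45 DAP, against 2101, 1459.8 and 1939 in WT 35 DAP, with overlap, while WT 45 DAP averaged 10.5 ± 7.45. TUB, a tubulin of the cytoskeleton, gave 972, 1413 and 1827 in rin 45 DAP, against 2468, 2289.8 and 1935 in WT 35 DAP, lower on every mutant array but not called, and 29.9 ± 36.3 in WT 45 DAP. The lipid transfer protein ltpg1 gave 12298, 11974 and 12923 in rin 45 DAP, against 7559.7, 11454 and 9379.8 in WT 35 DAP, without a call, and 735 ± 1194 in WT 45 DAP. TGAS118, a defensin-like protein, gave 1064, 631 and 571 in rin 45 DAP, against 1094, 4882 and 1523 in WT 35 DAP, lower on every mutant array but not called (limma adjusted p = 0.28), and 12.9 ± 2.46 in WT 45 DAP. For EXP5, TUB and ltpg1 the log2 differences of rin 45 DAP from WT 45 DAP were 6.98, 6.25 and 6.32, all called.

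None of the 8 tested photosynthesis genes was called in limma between rin 45 DAP and WT 35 DAP (6.56% of all tested). Of these 2 had an unadjusted p under 0.05, again near the share of all tested probe sets, and the median log2 difference was -0.54. In WT 45 DAP against WT 35 DAP, 5 of the 8 were lower and 1 was higher. CAB6A, a chlorophyll-binding protein of photosystem I, gave 77.1, 1324 and 1357 in rin 45 DAP, against 1892, 1127 and 2269 in WT 35 DAP. Replicates 2 and 3 of the mutant stood within the green range and replicate 1 far below it (log2 difference -1.71 ± 1.01, limma adjusted p = 0.34), while WT 45 DAP averaged 7.32 ± 2.77. Also on the list, CAB4 averaged 319 in rin 45 DAP against 1108 in WT 35 DAP, and CAB5 21.6 against 110. Their log2 differences were -2.16 and -2.14, without a call, while that of PsbQ was -0.13. The arrays of the groups did not overlap at 4 of the 8 genes (36.4% of all tested).

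Of 16 tested genes of starch and sugar metabolism, AgpL1 and FRK2 fell and none was called higher (3.4% and 3.16% of all tested). The median log2 difference was -0.31, and 8 of the 16 had an unadjusted p under 0.05 (22.9% of all tested). AgpL1, the large subunit of ADP-glucose pyrophosphorylase, the gateway enzyme of starch synthesis, gave 12.3, 24.8 and 28.6 in rin 45 DAP, 1 of them dim, against 1092, 194 and 379.8 in WT 35 DAP. The mutant was at least 20.5-fold lower (log2 difference -4.39 ± 1.01, limma adjusted p = 0.0185), but the call held only in the fit without WT 35 DAP replicate 2 among those with 1 array left out, adjusted p reaching 0.0941 (log2 -3.72) without WT 35 DAP replicate 1. WT 45 DAP averaged 10.4 ± 0.656 (log2 difference of rin 45 DAP from it 0.99 ± 1.01, limma adjusted p = 0.502). FRK2, a fructokinase of starch-storing fruit, gave 751, 529.8 and 653 in rin 45 DAP, against 1689.6, 1596 and 1465 in WT 35 DAP, lower on every array (log2 difference -1.31 ± 0.23, limma adjusted p = 0.00515). It lay between the wild-type ages, since WT 45 DAP averaged 281 ± 39.7. AGAL, an alpha-galactosidase, averaged 242 ± 182 in rin 45 DAP and 1384 ± 191 in WT 35 DAP (SD, n = 3 each), and was not called (log2 difference -3.13 ± 1.12, limma adjusted p = 0.11), with replicate 1 of the mutant the lowest. AI, the vacuolar acid invertase that splits sucrose in ripe fruit, gave 5075, 2973 and 3609.9 in rin 45 DAP, against 9975, 7114 and 9641 in WT 35 DAP, lower on every array but not called (limma adjusted p = 0.211), while WT 45 DAP averaged 19146 ± 788.

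IAA17 and IAA16, auxin response repressors expressed in green fruit, fell in old rin fruit. IAA17, an Aux/IAA protein that holds auxin response factors inactive, gave 7.04, 5.91 and 6.16 in rin 45 DAP, all dim, against 354, 316 and 171 in WT 35 DAP. The mutant was at least 18.7-fold lower (log2 difference -5.40 ± 0.51, limma adjusted p = 5.49e-05), and every fit with 1 array left out called it. WT 45 DAP was dim as well, at 8.27 ± 1.24, and rin 35 DAP averaged 162 ± 60.6. IAA16, of the same family, gave 5.86, 10.5 and 10.9 in rin 45 DAP, all dim, against 353, 80.4 and 213 in WT 35 DAP, at least 12.8-fold lower (log2 difference -4.38 ± 0.91, limma adjusted p = 0.0116). Its call was lost without WT 35 DAP replicate 1 (adjusted p = 0.058), and its log2 difference was -4.97 without replicate 2. Of the 7 tested genes on the auxin and hormone list, IAA17 was the 1 called by its brightest probe set, lower (3.4% of all tested). An unadjusted p under 0.05 was seen for 2 of the 7 (22.9% of all tested), and the list's median log2 difference was -0.44. CYP85A1, a brassinosteroid oxidase, gave 210.0, 321 and 284 in rin 45 DAP, against 49.2, 96.6 and 89.4 in WT 35 DAP, on its brightest probe set, higher on every mutant array but not called (log2 difference 1.83 ± 0.83, limma adjusted p = 0.202). Its other probe set was called higher (2.03 ± 0.57, limma adjusted p = 0.0442), though in no fit with 1 array left out, adjusted p reaching 0.180 without WT 35 DAP replicate 1. On the list of cell cycle and growth, CDKA1 was the 1 of 8 called, lower (3.4% of all tested). It was also the 1 of the 8 with an unadjusted p under 0.05 (22.9% of all tested). CDKA1, a cyclin-dependent kinase, gave 61.2, 92.5 and 90.1 in rin 45 DAP, against 565, 399.9 and 399 in WT 35 DAP (log2 difference -2.49 ± 0.48, limma adjusted p = 0.00836), and lay above WT 45 DAP, at 7.74 ± 2.79.

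Of 12 tested genes of defence and stress, TAS14, CHI3 and RSI-1 fell and none was called higher (3.4% and 3.16% of all tested). An unadjusted p under 0.05 was seen for 7 of the 12 (22.9% of all tested), and the median log2 difference was -1.30. TAS14, a dehydrin that accumulates with drought and abscisic acid, gave 7.505, 19.9 and 26.7 in rin 45 DAP, 1 of them dim, against 298, 1181 and 653 in WT 35 DAP. It was at least 32.1-fold lower in the mutant (log2 difference -5.27 ± 0.93, limma adjusted p = 0.00515) and averaged 8.11 ± 0.423 in WT 45 DAP. GolS-1, galactinol synthase, which starts the synthesis of raffinose sugars, gave 3.802, 3.57 and 3.56 in rin 45 DAP, all dim, against 28.1, 308 and 87.1 in WT 35 DAP, at least 6.37-fold lower (log2 difference -4.64 ± 0.93, limma adjusted p = 0.00965), the fitted log2 difference going from -5.49 without WT 35 DAP replicate 1 to -3.76 without replicate 2. It was as dim in rin 35 DAP, at 3.85 ± 0.2201, without a call there (limma adjusted p = 0.0535). P69B, a subtilisin-like protease, gave 6.34, 6.38 and 6.17 in rin 45 DAP, all dim, against 113, 55.97 and 114 in WT 35 DAP, at least 6.27-fold lower (log2 difference -3.83 ± 0.66, limma adjusted p = 0.00461). Osmotin NP24-I moved the other way without a call, at 1573, 1989 and 1824 in rin 45 DAP, against 8.27, 368 and 233 in WT 35 DAP (limma adjusted p = 0.0654).

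On the list of glutamate and other amino acid metabolism, yfe37 alone of 10 tested genes was called, lower (3.4% of all tested). An unadjusted p under 0.05 was seen for 3 of the 10 (22.9% of all tested), and the median log2 difference was 0.14. The list does not hold every such gene. GABA-TP2, a GABA transaminase by its symbol and chosen after its values were seen, was outside it and was called lower. It averaged 14.8 in rin 45 DAP, near background, against 348 in WT 35 DAP. Its call held in 4 of the 6 fits with 1 array left out. The gene yfe37, also named GAD3, encodes a glutamate decarboxylase, which makes GABA. It gave 3.42, 46.3 and 34.00 in rin 45 DAP, 1 of them dim, against 801, 3304 and 605 in WT 35 DAP. It was at least 42.7-fold lower (log2 difference -6.06 ± 1.60, limma adjusted p = 0.036), but no fit with 1 array left out called it, adjusted p reaching 0.124. Its log2 difference was -4.88 without rin 45 DAP replicate 1, -6.76 without replicate 2 and -5.31 without WT 35 DAP replicate 2. The gene hdc, listed as a histidine decarboxylase, gave 213, 6.91 and 6.21 in rin 45 DAP, against 5.47, 5.62 and 5.89 in WT 35 DAP, all 3 dim. As for ACS2, replicate 1 alone was above background, and WT 45 DAP averaged 7508 ± 706. ARG2, arginase, and GS2, the plastid glutamine synthetase, were lower on every mutant array without a call. ARG2 gave 164, 152 and 247 in rin 45 DAP, against 386, 4437 and 515 in WT 35 DAP, and GS2 gave 42.1, 51.1 and 39.3 in rin 45 DAP, against 96.6, 138 and 209.7 in WT 35 DAP.

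The 3 remaining lists with tested members had no call in limma (6.56% of all tested). Of 8 genes of ion and water transport 1 had an unadjusted p under 0.05, as had 1 of 3 lipid transfer genes and 0 of 2 flavonoid genes (22.9% of all tested). TSW12, a lipid transfer protein, ranged widely within both groups, at 113, 5255 and 4349 in rin 45 DAP and 9.06, 944 and 135 in WT 35 DAP. CHS1, chalcone synthase of flavonoid synthesis, gave 11.7, 185 and 139 in rin 45 DAP and 45.2, 253 and 84.6 in WT 35 DAP, with 1467 ± 375 in WT 45 DAP.

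Set against all 9 wild-type arrays of the 3 ages, rin 45 DAP lay wholly above at 189 probe sets (2.45%) and wholly below at 96 (1.24%). Of all tested, 39 were both called higher and above that range (0.505%), and 25 were called lower and below it (0.324%). Of those 25, 7 were dim on all 3 mutant arrays and 4 had at least 1 dim wild-type array. EIL2 and CS2 were the named genes above the range. CS2 gave 235, 82.2 and 78.9 in rin 45 DAP, against 14.04, 12.5 and 14.2 in WT 35 DAP, all 3 dim, and 15.3 ± 2.64 in WT 45 DAP (at least 7.62-fold higher in rin 45 DAP than in WT 35 DAP, log2 difference 3.09 ± 0.37, limma adjusted p = 3.43e-04). It was already raised in rin 35 DAP, at 149 ± 20.2 (log2 difference from WT 35 DAP 3.45 ± 0.37, limma adjusted p = 2.70e-04), so that the difference was present at equal age. Together with RIN it was called at 35 DAP and in the main comparison. EIL2 averaged 1746 ± 164 in rin 35 DAP, not called against WT 35 DAP (log2 difference 0.80, limma adjusted p = 0.195).

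Below the wild-type range lay RIN, CHI3, RSI-1 and eIF-5A1. P69B was also listed there, but it was dim on all 3 mutant arrays and on 6 of the 9 wild-type arrays, and its place among them has no meaning. The chitinase CHI3 gave 11.8, 17.9 and 19.2 in rin 45 DAP, 1 of them dim, against 118, 1089 and 128 in WT 35 DAP, at least 15.4-fold lower (log2 difference -3.99 ± 1.03, limma adjusted p = 0.0319). Its call was lost without any 1 of the mutant arrays or without WT 35 DAP replicate 2, where the log2 difference was -2.94 and the adjusted p 0.123. RSI-1 gave 72.3, 14.02 and 21.03 in rin 45 DAP, against 125, 354 and 983 in WT 35 DAP and 4459 ± 2060.4 in WT 45 DAP. All 3 mutant arrays thus lay farther from the red-ripe level than the green arrays did (at least 12.4-fold lower than WT 35 DAP with 1 mutant array dim, log2 difference -3.66 ± 0.73, limma adjusted p = 0.0094), though not called without rin 45 DAP replicate 2 (adjusted p = 0.0516). Its log2 difference was -4.36 without rin 45 DAP replicate 1, -4.41 without WT 35 DAP replicate 1 and -2.92 without replicate 3. The translation factor eIF-5A1 gave 3776, 1477 and 3253 in rin 45 DAP, against 12337, 9031 and 11186 in WT 35 DAP and 6420.1 ± 1088 in WT 45 DAP (log2 difference from WT 35 DAP -2.03 ± 0.29, limma adjusted p = 0.00156).

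**Figure D5:**
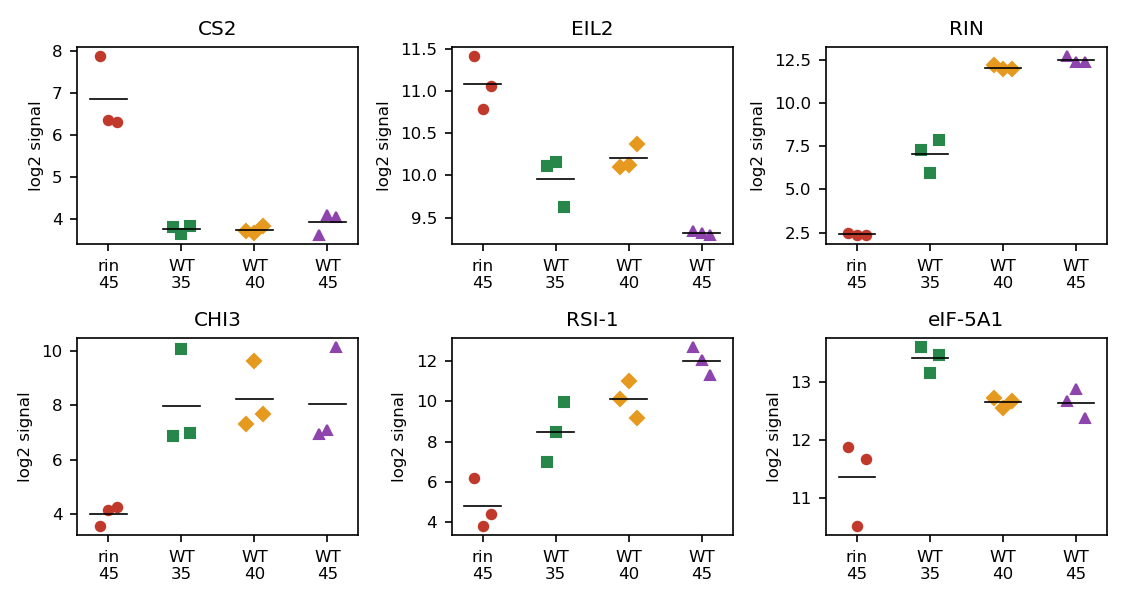
Log2 signal of each array of rin 45 DAP and of wild type at 35, 40 and 45 DAP for 6 of the named genes outside the wild-type range, with lines at the mean of log2 signals. In rin 45 DAP the 3 arrays of CS2 and EIL2 lie above all 9 wild-type arrays, and those of RIN, CHI3, RSI-1 and eIF-5A1 lie below them.

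Among probe sets without a gene name, the 2 with the largest called increase and the 2 with the largest called decrease had fold bounds between 38.5 and 637. The probe set with the largest increase gave 8600.3, 7025 and 7402 in rin 45 DAP, against 9.400, 534 and 28.9 in WT 35 DAP, where replicate 2 stood well above the others and 1 array was dim, at least 124-fold higher (log2 difference 7.18 ± 0.93, limma adjusted p = 7.06e-04). It averaged 4668 ± 2210.1 in rin 35 DAP and 4.88 ± 0.466 in WT 45 DAP, so it was high in the mutant at both ages. Its log2 difference was 5.94 without WT 35 DAP replicate 1 and 8.86 without replicate 2. The other increase, with 1412, 359.6 and 389 in rin 45 DAP, against 4.099, 6.52 and 6.77 in WT 35 DAP, all 3 dim, was at least 38.5-fold higher. It was at 1844 ± 531 in WT 45 DAP and at 7.02 ± 3.02 in rin 35 DAP, and its log2 difference was 6.05 without rin 45 DAP replicate 1, against 6.69 with it. The probe set with the largest decrease gave 5.21, 4.76 and 4.64 in rin 45 DAP, all dim, against 3247, 23537 and 9852 in WT 35 DAP, at least 637-fold lower, with a log2 difference of -10.87 ± 1.24, which was -11.6 without WT 35 DAP replicate 1 and -10.2 without replicate 2. The other decrease gave 5.67, 5.04 and 5.02 in rin 45 DAP, all dim, against 2953, 13227 and 7038 in WT 35 DAP, at least 455-fold lower. Both decreases were also dim in rin 35 DAP, where they averaged 5.22 ± 0.312 and 5.65 ± 0.395, and both were called against WT 35 DAP at equal age (limma adjusted p = 3.75e-04 and 0.00407). They were dim on all 3 arrays of WT 45 DAP too, at 6.25 ± 0.846 and 6.16 ± 0.719. Wild type thus lost them between 35 and 45 DAP (log2 differences of WT 45 DAP from WT 35 DAP -10.5 and -10.0, both called), while rin was dim at both of these ages. Between rin 45 DAP and WT 45 DAP neither was called (limma adjusted p = 0.859 and 0.932). In the main comparison all 4 were called in every fit that left out 1 array.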

How the data were processed

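The deposited intensity values, on a linear scale with a row for each probe set and a column for each array, were computed by the authors in the GCOS software, as credited in the submitters' processing notes without a version. To what target they were scaled is stated in no label or header. Growth and treatment notes in the labels describe seedling shoots rather than fruit, so groups were taken from titles and characteristics. Titles number 3 plants in each group and call the arrays biological replicates, which were taken as separate plants. Codes in the titles recur across ages, and a fit in which arrays of one code are correlated (duplicateCorrelation) was added after seeing the data.

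Intensities were taken to log2 as deposited. The table had 10209 probe sets, of which 108 were controls, and a further 2384 were dropped because fewer than 3 of the 18 arrays put them above the array's 30th percentile. One mean per group was fitted over all 6 groups with limma 3.58.1 in R 4.3.3 (eBayes with a variance trend), two-sided, with Benjamini-Hochberg adjustment within each comparison and calls at an adjusted p under 0.05. Number of arrays, 3 per group, limits the precision. In data simulated for rin 45 DAP minus WT 35 DAP over 7717 probe sets, 200 of them changed, the fit recovered 31.3% of changes of 1 in log2, 76.1% of 2 and 87.9% of 3, with 7 false calls. The simulated arrays were drawn independently, without the closeness of rin 45 DAP replicates 2 and 3, so these rates need not hold for the data. Bounds for folds where 1 or 2 arrays of a group were dim were chosen after seeing the data. Means and SDs are of linear signals.

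Names came from the platform annotation. It gives 909 probe sets 1 symbol, 885 of which matched the RefSeq table of assembly SLM_r2.1, as 803 genes. Tested were 635 named genes on 687 probe sets, and the brightest probe set represented each of the 41 genes that had several. Lists were matched by symbols and synonyms only. Genes LeARF1 and PTI4 were taken off lists they matched by a shared name (auxin, regulators), as was gad2, which shares a name with GAME11. The vascular list matched no symbol, and the seed list matched only MAN2, which was left out as dim. Text names the 12 largest called increases and decreases with non-overlapping arrays, up to 3 called members of a list, key genes of each list, and up to 4 called genes beyond all wild-type arrays in each direction; others are said to be chosen after their values were seen. The comparison, the lists and the genes were chosen with earlier results of these data known. Alternatives were other normalizations, filters and pseudocounts, a fit on the 6 arrays alone, a replicate block, rin 45 DAP replicates 2 and 3 averaged, no variance trend, a minimum log2 difference of 1, and leaving out each array.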

Additional observations from a re-analysis of the deposited data

Results flagged for a closer look

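The change from 35 to 45 DAP differed between the genotypes, by the test of that difference, at 1018 of 7717 probe sets (13.2%, limma, adjusted p under 0.05). The test compares the difference between rin 45 DAP and rin 35 DAP with that between WT 45 DAP and WT 35 DAP.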

How the results depend on the processing

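The main count was 244 probe sets higher and 262 lower in rin 45 DAP. With only the 6 arrays compared it was 411 higher and 384 lower, and with rin 45 DAP replicates 2 and 3 averaged to 1 sample it was 90 higher and 110 lower. Leaving out 1 array at a time gave 81 to 148 higher and 109 to 230 lower. Quantile normalization (264 higher, 254 lower) and the fit on 6 arrays turned the majority to higher calls. The other alternatives moved neither count by over 1.5 times. Same-numbered arrays did not deviate together (correlations of deviations -0.32, -0.36 and 0.18), so the numbers were not taken to pair them, and with the replicate block 227 were higher and 260 lower, 443 of the calls being shared with the main fit. Of 33 named genes called, 19 were called in all 6 fits with 1 array left out and 24 without rin 45 DAP replicate 1. Of the genes named by the rule and not called, 7 turned direction under some alternative, all without a call. With replicates 2 and 3 averaged the log2 difference was -0.19 for ACS1A and 0.0025 for DXS, and with median centring it was -0.0145 for XYL1. In the added fit with arrays of one title code correlated (consensus correlation -0.0239) it was -0.0064 for XYL1, and 236 were higher and 257 lower, with 785 called between rin 45 and 35 DAP, 3258 between WT 45 and 35 DAP and 986 for the difference of these changes. With 1 array left out it ranged between -0.77 and 1.99 for ACS1A, -0.31 and 0.83 for ACS6, -1.29 and 0.70 for CHS1, -0.203 and 0.0824 for DXS, -0.578 and 0.0891 for NHX1, -0.814 and 0.0114 for TDR4, and -0.0147 and 0.0283 for XYL1. The cause was not tested. Dim signals limit what can be read of genes near background, as their order there has no meaning.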

Other observations

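A further 25 named genes were called outside the naming rule, 14 higher and 11 lower, and the 5 given next were chosen after their values were seen, as those called in all 6 fits that left out 1 array. TomloxE, a lipoxygenase of ripening fruit, gave 277, 345 and 381 in rin 45 DAP, against 83.8, 47.7 and 75.4 in WT 35 DAP, higher on every mutant array (log2 difference 2.31 ± 0.37, limma adjusted p = 0.00355). CGS, cystathionine gamma-synthase of methionine synthesis, gave 6670.0, 3816 and 4119 in rin 45 DAP, against 1641, 901 and 1819 in WT 35 DAP (log2 difference 1.76 ± 0.33, limma adjusted p = 0.00725). It also lay above WT 45 DAP, at 2087 ± 235 (log2 difference of rin 45 DAP from it 1.18, limma adjusted p = 0.0156). TFT7, a 14-3-3 protein, gave 2352, 1786 and 1888 in rin 45 DAP, against 717, 997 and 1027 in WT 35 DAP (log2 difference 1.14 ± 0.20, limma adjusted p = 0.00512). IAA7, an Aux/IAA protein like IAA16 and IAA17, gave 3.17, 2.98 and 2.99 in rin 45 DAP, all dim, against 21.4, 10.9 and 16.3 in WT 35 DAP, where replicate 2 was dim too. With dim mutant signals raised to the percentile it was at least 1.09-fold lower, so its call (limma adjusted p = 0.00465) rests largely on differences within background. AGL11, a MADS-box gene, gave 21.1, 5.31 and 5.32 in rin 45 DAP, 2 of them dim, against 62.2, 221 and 65.6 in WT 35 DAP, at least 5.78-fold lower (log2 difference -3.52 ± 0.63, limma adjusted p = 0.00515), and its log2 difference lay between -4.19, without rin 45 DAP replicate 1, and -2.92, without WT 35 DAP replicate 2.

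The probe sets of ACO6, an ACC oxidase by its symbol, disagreed in their calls. Its brightest probe set was not called (log2 difference 1.75 ± 0.57, limma adjusted p = 0.081), whereas the other two were called higher (2.65 ± 0.61, limma adjusted p = 0.0181, and 2.73 ± 0.65, limma adjusted p = 0.0233). Without rin 45 DAP replicate 1 neither of those was called, at adjusted p of 0.0656 and 0.0834. All 3 had the same direction.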
